A study of Arabidopsis thaliana with 10 samples.

Results

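The plastid genome of Arabidopsis thaliana keeps genes for part of its own gene expression machinery, and 36 identifiers of the RNA count table for such genes were followed here, out of 133 plastid identifiers and 73194 features in all. They were chosen by identifier, as the plastid genes for ribosomal proteins (rps for the small and rpl for the large subunit), for the core of the plastid-encoded RNA polymerase (rpo), and the genes clpP, accD, ycf1 and ycf2. They are called members below. The samples were whole seedlings of ecotype Ler, 5 days old, grown on MS medium without treatment: 3 RNA libraries of the homozygous mutant fve-8 and 3 of E5-4, the line that serves as its wild type and is called WT. The study's title concerns silencing of transgene RNA, and the labels used here do not describe a transgene or the origin of the allele. FVE encodes a WD40-repeat protein known for its part in histone deacetylation and flowering time.

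Plastid genes are transcribed by a bacterial-type RNA polymerase, whose core is encoded by the rpo genes in the plastid and whose promoter recognition rests on sigma factors encoded in the nucleus, and by phage-type polymerases encoded in the nucleus. Plastid ribosomes are also built from proteins of both genomes. Many plastid genes are transcribed together with their neighbours as long precursors that are then cut and processed. The clpP gene encodes a catalytic subunit of the stromal Clp protease, accD a subunit of the acetyl-CoA carboxylase that starts fatty acid synthesis, and ycf1 and ycf2 very large proteins linked to protein import at the inner envelope. The count table gives plastid identifiers without symbols, and the RefSeq table lists the same kinds of gene under other locus tags, with 12 rps, 9 rpl and 4 rpo symbols among 29 in all. No single identifier is therefore given a gene name here, and since no length could be tied to an identifier, levels are compared between libraries and not between members.

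Libraries held 16161800 to 19599058 counts, of which 6225181 to 8138022 fell on plastid identifiers and 195029 to 295246 on members. The plastid part was smaller in fve-8, at 38.3%, 33% and 38.5% of all counts against 45.3%, 45.9% and 44.9% in WT. Levels are in CPM, counts scaled to a fixed library total after TMM normalization. Each member is given on 2 scales: against all features, where the scaling is set mostly by nuclear genes, and against plastid features only. In libraries from whole seedlings, fewer green cells and less plastid RNA per cell cannot be told apart. The fve-8 libraries differed more from each other than the WT libraries did, the chi-square statistic of a pair of libraries divided by its degrees of freedom being 17.3 to 43.6 against 2.68 to 4.10, and fve-8 replicate 3 stood furthest from the other 2, so counts of calls are also given without it. Separate growth of the numbered replicates is not stated, so p-values measure the spread between these libraries, which may be technical.

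Leaf, root, seed and flower markers were checked beside the plastid values. The 4 leaf genes summed to 14908 to 15557 CPM in WT and 11701 to 14292 in fve-8, and 1 of them was called lower. This was CAB2 (log2 fold change -0.46 ± 0.13, edgeR adjusted p = 0.0496). RBCS1A, which made up most of the sum, and LHCA1 were at -0.17 and -0.22 without a call. RBCS1B went the other way, at 0.12 with overlapping genotypes and no call. Of 5 seed markers 4 were tested and all 4 fell, from a sum of 57.6 to 99.9 CPM in WT to 9.57 to 17.3 in fve-8. Of 4 root markers 3 fell, from 57.2 to 61.7 CPM to 31.6 to 35.3, whereas the 4 flower markers summed to at most 1.42 CPM in any library; no marker of the 4 lists was at 0 in every library. The leaf, seed and root sums thus differed between genotypes without overlap, and their part in the results below was not tested.

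Of the 36 members, 26 held enough counts to be tested and 10 did not. The 10 untested members all belonged to 6 pairs of identifiers taken as genes of the inverted repeat, where the plastid genome carries a second copy. RefSeq lists rpl2, rpl23, rps7, rps12, ycf1 and ycf2 in 2 rows each. The pairs were assigned for this work and are not annotated in the data, so paired identifiers need not cover the same sequence. Of these 10, 3 had 0 counts in every library, which allows up to 3 counts or 0.153 to 0.186 CPM per library, and 9 had at most 3 counts in any library. The remaining one, ATCG00905, had 4, 3 and 5 counts in WT and 9, 16 and 9 in fve-8. These members' transcripts could not be measured in this table, for which the treatment of reads with several positions is not stated. ATCG01000 and ATCG01130, taken as the remaining pair, were both tested, at 17 to 26 counts for the first and 1372 to 5347 for the second.

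Against all features, 10 of the 26 tested members rose in fve-8 and 3 fell (edgeR quasi-likelihood test, Benjamini-Hochberg adjusted p under 0.05). Over all 19543 tested features 6.60% were called higher and 5.07% lower. The median log2 fold change was 0.25 for the members, -0.01 for all features and -0.54 for the other 69 tested plastid identifiers. Of those 69, 28 fell and 0 rose; 0 were higher even at an unadjusted p under 0.05, and DESeq2 also called 0 higher. The 28 became 3 without WT replicate 1 or 2, 5 without WT replicate 3, 10 when fve-8 replicate 2 was left out and 58 when fve-8 replicate 3 was, with 0 called higher each time. Scaling by library totals alone moved the median of all features to 0.33, the split of all features to 5598 higher and 192 lower, that of the members to 15 and 1, and that of the other plastid identifiers to 0 and 9. The authors' deposited table lists an adjusted p for 27 members and calls 10 higher and 3 lower, and all 13 members called here were called there with the same sign. When fve-8 replicate 3 was left out, 10 members were called higher and 8 lower, while the calls over all features became 2444 higher and 1986 lower. Members called lower numbered 0 without WT replicate 1 or 2, and 1 when either WT replicate 3 or fve-8 replicate 2 was left out.

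Against plastid features only, 16 of 26 members rose and 0 fell, with 16.8% of the 95 tested plastid identifiers called higher and 2.11% lower. All 16 identifiers called higher were members, while 0 of the other 69 were called higher by edgeR or DESeq2 and 4 were higher at an unadjusted p under 0.05. Among members 1 was lower at an unadjusted p under 0.05, and DESeq2 called 0 lower. The median log2 fold change was 0.71 for members, -0.04 for all tested plastid identifiers and -0.11 for the others. Plastid scaling raised a member's log2 fold change by 0.30 to 0.55, with a median of 0.46, so that 10 members rose on both scales and 6 only in the plastid fit, a difference between fits that was not itself tested. When fve-8 replicate 3 was left out, 21 members were called higher, and of the other plastid identifiers 6 were then called higher and 17 lower. Members called higher numbered 9 without WT replicate 2, beside 0 of the others. The others called higher numbered 2 without fve-8 replicate 1, 2 with the inverted repeat pairs summed and 4 with plastid totals in place of TMM.

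**Figure D1:**
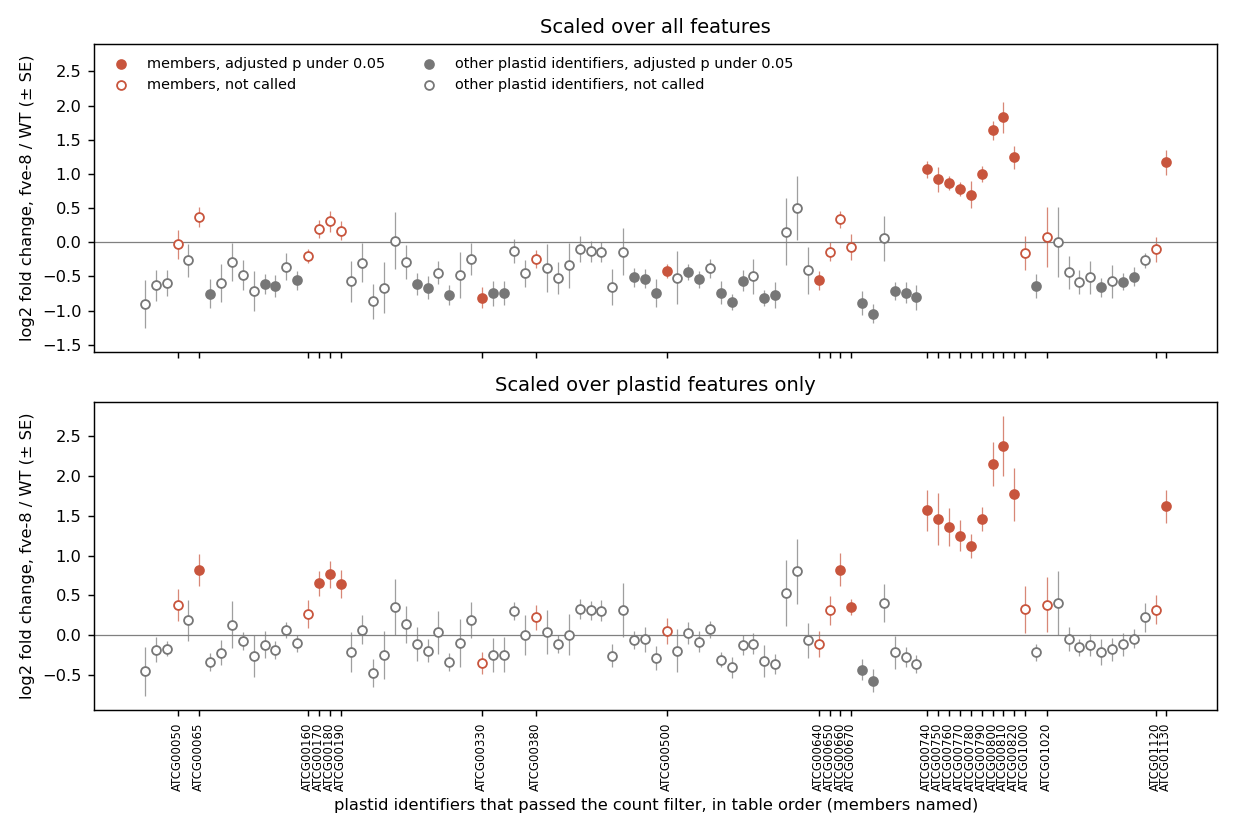
Log2 fold change of fve-8 over WT (y axis, with SE) for the 95 plastid identifiers that passed the count filter, in table order (x axis), scaled over all features (top) and over plastid features only (bottom), from 3 libraries per genotype. Filled points have an adjusted p under 0.05; the 9 identifiers ATCG00740 to ATCG00820 form the highest stretch in both panels, and the other plastid identifiers (grey) that were called all lie below 0.

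Members took a larger part of the plastid counts in every fve-8 library than in any WT library. Their share of plastid counts was 2.95%, 2.70% and 2.67% in WT replicates 1 to 3 and 3.71%, 4.57% and 4.26% in fve-8. The mean went from 2.77% ± 0.156 to 4.18% ± 0.436 (SD, n = 3, exact two-sided permutation p = 0.1, the smallest that 3 against 3 libraries can give). In all raw counts together, members made up 1.34%, 1.24% and 1.20% of the WT libraries and 1.42%, 1.51% and 1.64% of the fve-8 libraries, with the same exact permutation p of 0.1. Plastid identifiers as a whole took less of the fve-8 libraries. These shares carry no TMM scaling, whose all-feature factors were 0.899, 0.879 and 0.895 in WT and 1.16, 1.21 and 1.01 in fve-8. A larger raw share is therefore not a rise in CPM, and summed member CPM was not tested. The 2 members with the most counts, ATCG00330 and ATCG00670, held 29.9% ± 2.35 and 22.6% ± 1.51 of the member counts in WT and 17.8% ± 2.50 and 22% ± 2.66 in fve-8, and without them the other members made up 1.32% ± 0.0764 of plastid counts in WT against 2.52% ± 0.369 in the mutant (SD, n = 3).

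The members were then set against a list of 45 other plastid identifiers taken as the photosynthesis genes, an assignment made for this comparison that the files do not annotate. In WT the list held 88.6% ± 0.268 of plastid counts, and 86.9% ± 1.57 in the mutant (SD, n = 3). The log2 ratio of summed member counts to summed counts of the list was -4.90, -5.04 and -5.05 in WT and -4.57, -4.26 and -4.32 in fve-8. The groups did not overlap, and the ratio was higher in fve-8 by 0.62 (exact two-sided permutation p = 0.1, again the smallest possible). It was higher by 0.43 when ATCG00740 to ATCG00820 were left out of the members, and by 0.97 when each gene was given the same weight.

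**Figure D2:**
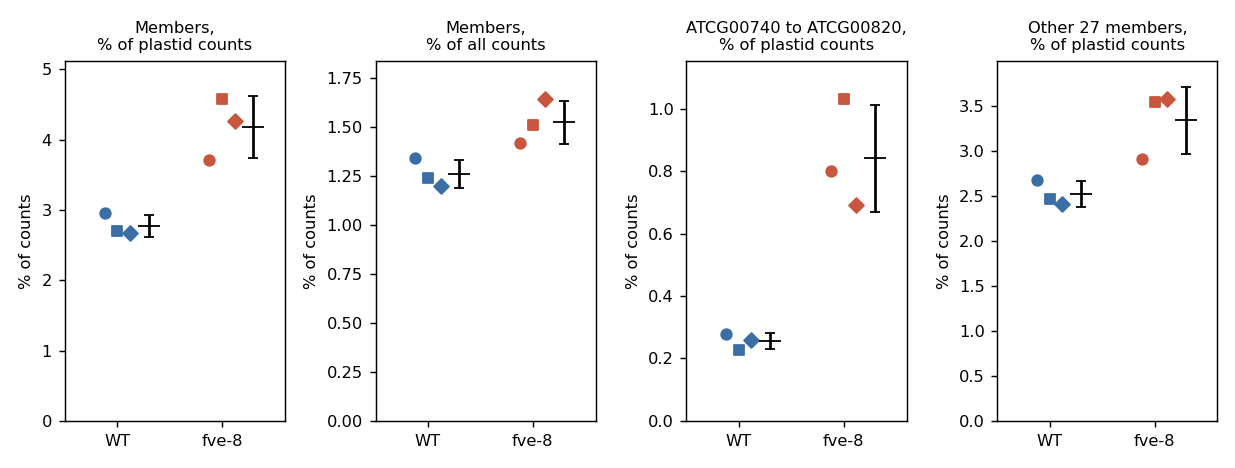
Share of raw counts in each library (y axes, % of plastid or of all counts, starting at 0) for all 36 members, for the 9 consecutive members and for the other 27. Circle, square and diamond stand for replicates 1 to 3 and bars for the mean ± SD (n = 3). In all 4 panels each fve-8 library lies above each WT library, with 2.67% to 2.95% of plastid counts on members in WT and 3.71% to 4.57% in fve-8.

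The members with the largest rises on both scales, ATCG00800, ATCG00810 and ATCG00820, stood side by side in the table. ATCG01130, from another part of the table, came next, at log2 fold changes of 1.17 against all features and 1.62 within the plastid. From ATCG00740 to ATCG00820 the plastid identifiers form an unbroken run of 9 rows that are all members, and all 9 rose on both scales. The run was picked out after its values were seen. The run held 0.278%, 0.228% and 0.259% of plastid counts in WT and 0.800%, 1.03% and 0.693% in fve-8, and its part of the member counts went from 9.18% ± 0.659 to 20.1% ± 3.37 (SD, n = 3, without overlap and with no test).

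Within the run ATCG00810 changed most. It stood at 104, 77.7 and 90.05 CPM in WT and at 361, 398 and 203 CPM in fve-8. All fve-8 libraries were above all WT libraries, with replicate 3 the lowest of the fve-8 libraries. On the all-feature scale this was a 3.54-fold rise (log2 fold change 1.83 ± 0.23, SE, adjusted p = 0.00214), and on the plastid scale a 5.19-fold rise (2.38 ± 0.38, adjusted p = 0.00249), both from edgeR.

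ATCG00800, the row before it, went from 108, 88.4 and 87.6 CPM to 308, 328 and 248 CPM. This was a 3.11-fold rise against all features (log2 fold change 1.64 ± 0.14, edgeR adjusted p = 0.000563) and 4.44-fold within the plastid. ATCG00820, the row after it, went from 38.7, 28.1 and 36.8 CPM to 91.1, 91.8 and 62.5 CPM, a 2.37-fold and a 3.40-fold rise on the same scales. In both members replicate 3 was again the lowest fve-8 library and still above the highest WT library.

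At the other end of the run, ATCG00740 was at 149, 118 and 148 CPM in WT and 282, 323 and 262.5 CPM in fve-8, a 2.09-fold rise against all features (1.07 ± 0.13, edgeR adjusted p = 0.00171). The next row, ATCG00750, was at 152, 134 and 149 CPM in WT and 309.6, 325 and 189 CPM in fve-8. Its replicate 3 lay nearest to WT of the fve-8 libraries, and its call against all features (0.92 ± 0.18, adjusted p = 0.0139) was lost without any 1 WT library (adjusted p = 0.0752, 0.0909 and 0.0581 without replicates 1 to 3) and without fve-8 replicate 2 (adjusted p = 0.0580). Within the plastid its log2 fold change was 1.46 ± 0.33, a call lost without WT replicate 2, fve-8 replicate 1 or fve-8 replicate 2 (adjusted p = 0.0715, 0.0669 and 0.0627).

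The next rows of the run rose as well. ATCG00760 went from 66.25, 56.45 and 58.2 CPM to 106, 117 and 106 CPM (log2 fold change against all features 0.86 ± 0.10). ATCG00770 went from 154, 129.5 and 145 CPM to 234, 244 and 254 CPM (0.77 ± 0.10). For both, the fve-8 libraries lay close to each other and clear of WT. ATCG00790 went from 370.2, 329 and 348 CPM to 639, 665 and 783 CPM (0.996 ± 0.12, edgeR adjusted p = 0.00170), with the smallest adjusted p of all members within the plastid (1.46 ± 0.15, adjusted p = 0.000561).

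ATCG00780 stood at 258, 230 and 237 CPM in WT and at 317, 320.5 and 539 CPM in fve-8, so that replicate 3 was the highest, as it was in ATCG00770 and ATCG00790. Its rise against all features was the smallest of the run (0.70 ± 0.19, edgeR adjusted p = 0.0443) and was lost without any 1 WT library or fve-8 replicate 2, with adjusted p of 0.0580 to 0.175. Within the plastid it was 1.11 ± 0.15 (adjusted p = 0.00114), a call that held without each library in turn.

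Over the run, the CPM of a single fve-8 library was 1.30 to 4.40 times the WT mean. In 5 of the 9 members replicate 3 was the lowest fve-8 library. In 14 of the other 17 tested members replicate 3 was the highest. Both counts are for CPM scaled over all features. In plastid CPM replicate 3 was the lowest fve-8 library for some of these 14, such as ATCG00330, and the highest for others, such as ATCG01020. The 4 plastid identifiers whose log2 plastid CPM followed that of ATCG00810 most closely over the 6 libraries were all of the run (ATCG00820, ATCG00760, ATCG00740 and ATCG00800, with Pearson's r of 0.991 to 0.997), a description over libraries that fall into 2 genotypes. The row just before the run, ATCG00730, is not a member and fell against all features by 0.80 ± 0.18 on the log2 scale (edgeR adjusted p = 0.0237). Its mean CPM was 7892 ± 213 in WT and 4525 ± 1008 in the mutant (SD, n = 3). Within the plastid ATCG00730 was at -0.37 ± 0.11 and was not called (edgeR adjusted p = 0.0524). The row after the run, ATCG00830, had at most 2 counts per library.

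**Figure D3:**
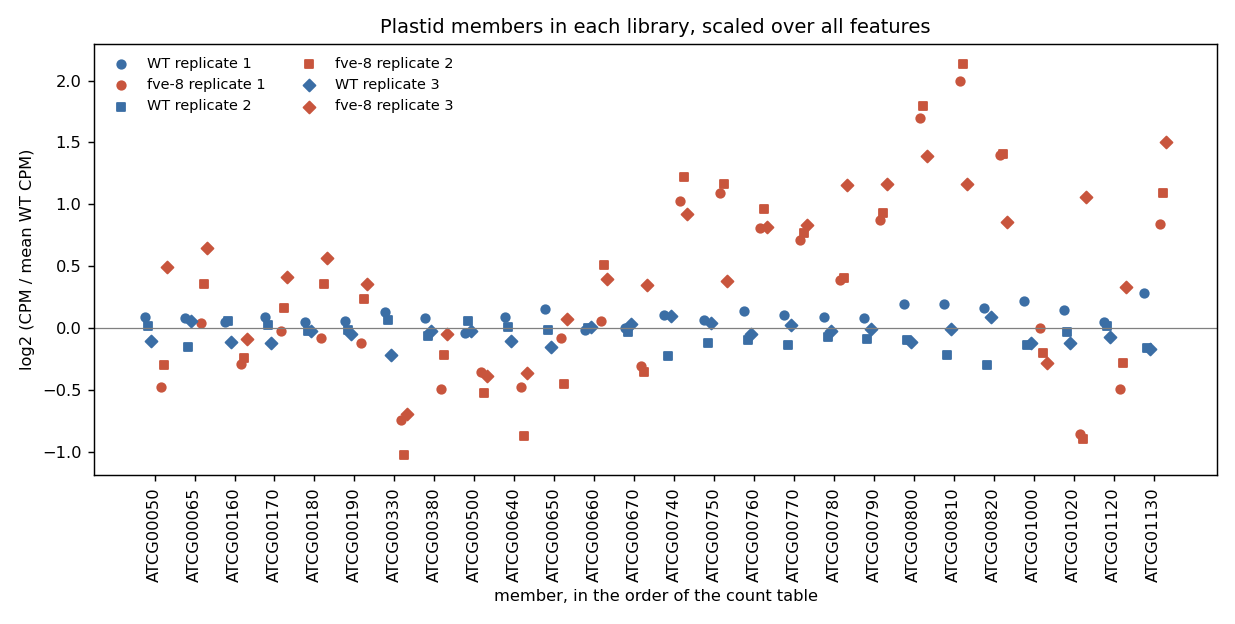
Log2 ratio of each library's CPM to the WT mean (y axis) for the 26 tested members in table order (x axis), scaled over all features, with blue for WT, red for fve-8 and a marker shape for each replicate. All fve-8 points of ATCG00740 to ATCG00820, of ATCG01130 and of ATCG00660, which was not called on this scale, lie above the WT points. For fve-8, replicate 3 (diamonds) lies low in part of the run ATCG00740 to ATCG00820 and high for ATCG01020.

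Outside the run 1 member rose on both scales. ATCG01130, the member of the assigned pairs with most counts, was at 129, 94.6 and 94.2 CPM in WT and 189, 226 and 300.4 CPM in fve-8. The 3 fve-8 libraries were all above WT, with a 2.25-fold rise against all features (log2 fold change 1.17 ± 0.18, edgeR adjusted p = 0.00563) and 3.06-fold within the plastid (1.62 ± 0.21). The first call was lost without WT replicate 2 (1.09, adjusted p = 0.0503). ATCG01000, assigned to it as a pair, had 1.48, 1.16 and 1.17 CPM in WT and 1.27, 1.10 and 1.04 CPM in fve-8. ATCG01000 was called on neither scale (log2 fold change against all features -0.16 ± 0.25, edgeR adjusted p = 0.730). It need not cover the same sequence as ATCG01130.

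Another 6 members rose within the plastid without a call against all features. Of these, 3 stand in consecutive rows. ATCG00170 went from 1024, 989.8 and 919 plastid CPM (counts scaled as CPM to the plastid total) to 1413, 1827 and 1368 (log2 fold change within the plastid 0.65 ± 0.15, edgeR adjusted p = 0.0184). ATCG00180 went from 1230, 1179 and 1207 plastid CPM to 1673, 2581 and 1882 (0.76 ± 0.17). ATCG00190 went from 892.5, 859 and 859 plastid CPM to 1177, 1716 and 1173 (0.64 ± 0.18). In the 3 members replicate 2 was the highest fve-8 library and the genotypes did not overlap. Against all features they were at 0.19 ± 0.13, 0.31 ± 0.16 and 0.17 ± 0.13, with adjusted p of 0.372, 0.234 and 0.432 and overlapping genotypes.

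The remaining 3 of the 6 stand apart from each other in the table. ATCG00065 went from 279, 239.8 and 283 plastid CPM to 402, 572 and 441 (0.82 ± 0.20, edgeR adjusted p = 0.0192). ATCG00660 went from 870.5, 886 and 915 plastid CPM to 1355, 2125 and 1234 (0.82 ± 0.21, adjusted p = 0.0242). ATCG00670 went from 6599, 6484 and 6950 plastid CPM to 7927, 8708 and 8968 (0.35 ± 0.10, adjusted p = 0.0342). All fve-8 libraries were again above all WT libraries, although the rise of ATCG00670 was only 1.28-fold. Without WT replicate 2 the calls of all 6 were lost, with adjusted p of 0.0773 to 0.208. ATCG00190 and ATCG00670 were also not called without the count filter (adjusted p = 0.0584 and 0.0843), and ATCG00190, ATCG00660 and ATCG00670 without WT replicate 1 (0.0601, 0.0526 and 0.112). The calls of ATCG00190 and ATCG00670 were lost without WT replicate 3 as well (0.0613 and 0.0559), and that of ATCG00670 without fve-8 replicate 2 (0.0627).

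Among the members 3 fell against all features. ATCG00330, the member with the most counts in WT, was at 4621, 4435 and 3640 CPM in WT and 2536, 2077 and 2621 CPM in fve-8. The genotypes did not overlap, and the log2 fold change was -0.81 ± 0.16 (edgeR adjusted p = 0.0124). ATCG00500 was at 674, 721 and 679.9 CPM in WT and 540.7, 482 and 529 CPM in fve-8 (-0.42 ± 0.11, adjusted p = 0.0336). ATCG00640 was at 315, 298 and 275 CPM in WT and 213, 162 and 229.7 CPM in fve-8 (-0.56 ± 0.14, adjusted p = 0.0301). The changes of ATCG00500 and ATCG00640 lay near the median of the other plastid identifiers, -0.54, and that of ATCG00330 below it. Within the plastid the 3 were at -0.35 ± 0.14, 0.06 ± 0.16 and -0.11 ± 0.16, with overlapping genotypes for each and adjusted p of 0.111, 0.815 and 0.660. With library totals alone ATCG00500 and ATCG00640 were no longer called (-0.09 and -0.23, adjusted p = 0.606 and 0.182). None of the 3 was called when WT replicate 1 or 2 was left out (adjusted p of 0.0831 to 0.165), nor were ATCG00500 and ATCG00640 when WT replicate 3 or fve-8 replicate 2 was (0.0748 to 0.107).

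The last 7 tested members were called on neither scale, ATCG01000 among them. ATCG01020 had the widest spread: 779.6, 689 and 649 CPM in WT and 391, 378 and 1475 CPM in fve-8. Its fve-8 replicate 3 was 3.83 times the mean of the other 2, above all WT libraries where those lay below them. With all libraries its log2 fold change was 0.08 ± 0.44 (edgeR adjusted p = 0.927), and without fve-8 replicate 3 it fell by 0.86 (adjusted p = 0.000289). ATCG00050, ATCG00160, ATCG00380, ATCG00650 and ATCG01120 had log2 fold changes between -0.24 and -0.03 against all features and between 0.22 and 0.38 within the plastid, and on the first scale their genotypes overlapped. On the plastid scale the fve-8 libraries of ATCG00050, ATCG00650 and ATCG01120 were all above WT, without passing the test. Over all members 19 of 26 had fve-8 above WT in plastid CPM without overlap and 0 below. Of all 95 tested plastid identifiers, these members included, 23 (24.2%) were above and 18 (18.9%) below.

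Nuclear genes for part of the same machines were followed on 6 lists, on the all-feature scale. Of 8 listed polymerase and sigma factor genes 6 were kept, all sigma factors, so the phage-type polymerases were not followed. Of 40 listed ribosomal protein genes 22 were kept. Of 61 genes kept on the lists 60 were tested, 10 rose and 0 fell, while 3 were lower at an unadjusted p under 0.05 and DESeq2 called 0 lower. Their median log2 fold change was 0.10, against -0.01 for all features and 6.60% called higher. The calls depended on single libraries: only 1 gene was called when WT replicate 1, the second WT library or fve-8 replicate 2 was left out, and 3 when WT replicate 3 was. In those fits the features called higher in all numbered 216, 222, 440 and 481, against 1290 with every library. With fve-8 replicate 3 left out, 17 partner genes rose and 3 fell, beside 2444 and 1986 of all features. With library totals alone 30 were called higher, beside 5598 of all features.

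The sigma factors and the proteins that bind the plastid-encoded polymerase held 7 of the 10. Of 6 sigma factor genes, which direct the plastid-encoded polymerase to promoters, 2 rose: SIGA (AT1G64860) from 16.3, 15.3 and 17.7 CPM to 28.3, 34.6 and 28.0 CPM (log2 fold change 0.88 ± 0.12, edgeR adjusted p = 0.00298) and SIG2 (AT1G08540) from 28.1, 28.6 and 35.9 CPM to 57.3, 60.2 and 41.2 CPM (0.78 ± 0.16). SIGA was the gene still called in each fit that left out 1 library. SIGC, SIG4 and SIGF were at 0.32 to 0.41 without passing the test, each with the fve-8 libraries above WT. SIGE (AT5G24120), a light- and stress-responsive sigma factor, was at -0.33 ± 0.12 (adjusted p = 0.0932). Of 13 genes for proteins that bind the polymerase 5 rose: PTAC12 (AT2G34640), also called HEMERA and known from light signalling (1.21 ± 0.23), FLN2 (AT1G69200, 0.80 ± 0.19) and FLN1 (AT3G54090, 0.39 ± 0.09), both fructokinase-like, PDE312 (AT3G48500, also called PTAC10, 0.71 ± 0.16), and the superoxide dismutase gene FSD3 (AT5G23310, 0.56 ± 0.12). The genotypes did not overlap in any of these 7, which were picked by the test. Of all tested features 15.6% had fve-8 above WT without overlap and 17.4% below.

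Of 22 tested nuclear genes for ribosomal proteins 1 rose, PRPL28 (AT2G33450, 0.48 ± 0.11, edgeR adjusted p = 0.0237), and the log2 fold changes of all 22 lay between -0.28 and 0.48 with a median of 0.01. Among the 10 genes of the Clp protease, the partners of the clpP product, CLPR1 (AT1G49970) rose (0.56 ± 0.12) and 9 were not called. None of the 4 acetyl-CoA carboxylase genes passed the test with edgeR or DESeq2, and 2 were lower at an unadjusted p under 0.05: BCCP2 (AT5G15530, -0.46 ± 0.13, adjusted p = 0.0503), a biotin carrier subunit, and CAC2 (AT5G35360, -0.30 ± 0.09, adjusted p = 0.0578), the biotin carboxylase. Of 5 tested genes whose proteins work at the inner envelope with the ycf1 and ycf2 products, 1 rose, emb1211 (AT5G22640, also called TIC100, 0.74 ± 0.16). The listed gene Tic20-I had 0 counts in every library, and whether the handling of reads set these counts was not tested.

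**Figure D4:**
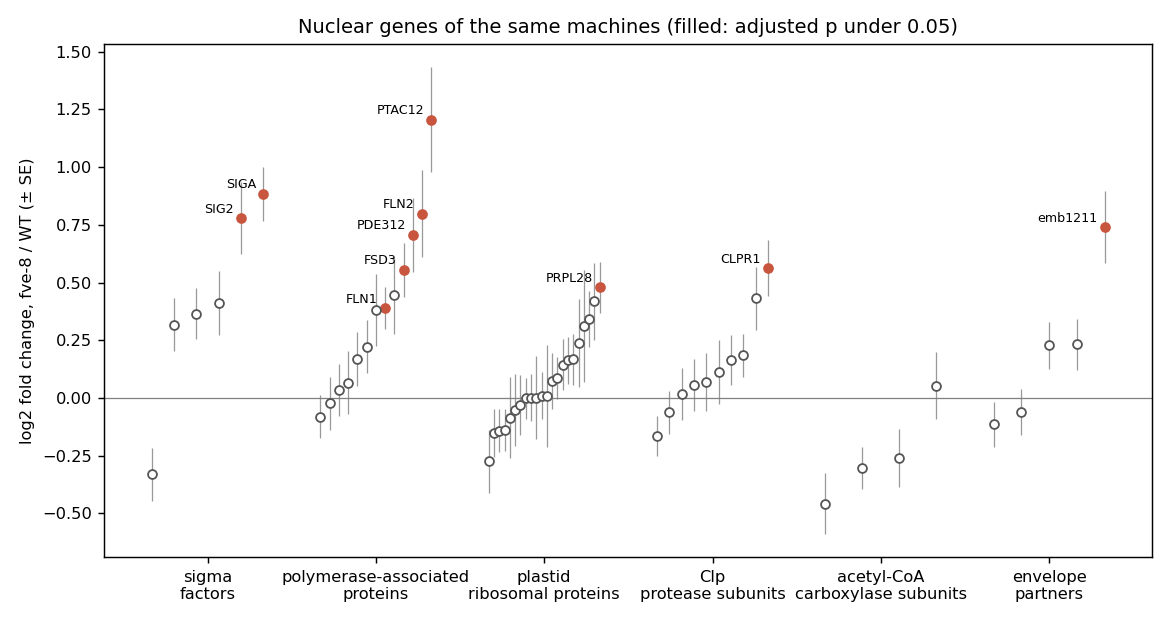
Log2 fold change of fve-8 over WT (y axis, with SE, scaled over all features) for 60 nuclear genes of 6 lists (x axis), each point a gene, from 3 libraries per genotype, with filled and named points at an adjusted p under 0.05. The 2 sigma factor genes and 5 of 13 polymerase-associated genes that rose lie between 0.39 and 1.21, and the 22 ribosomal protein genes lie around 0.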

How the data were processed

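Per the labels' protocols, RNA was extracted with Trizol and sequenced after preparation with the TruSeq Stranded Total RNA kit. The authors deposited raw counts as whole numbers for each feature in each library. TopHat2, SAMtools, HTSeq and edgeR were used, per the submitters' processing notes; their versions, the build, and how strand, overlaps and reads with several positions were handled are not stated there. Overlapping, antisense and repeated genes may thus share or lose reads. Authors' log2 fold changes and adjusted p-values in the deposited table were used only where named. The authors' normalized values (6 columns) were not used, nor was the small RNA table, which holds no plastid gene. Gene names come from RefSeq (TAIR10.1), which has none for plastid identifiers of this form, and no sequence was available to print.

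Counts were fitted with edgeR 4.0.16 in R 4.3.3 (filterByExpr, TMM, quasi-likelihood test, Benjamini-Hochberg over all tested features), genotype being the only term: once over all features, and once over the 133 plastid rows alone with their own totals, filter, TMM factors and adjustment. CPM and plastid CPM use the TMM-scaled totals, and each SE is the log2 fold change divided by the root of F. Counting error alone allows up to 3 counts behind a 0. Shares were compared with an exact permutation test. Of 87 listed nuclear genes 61 were kept, those whose RefSeq symbol or synonyms fit the list. Named were all members called in either fit, with other members by range or value, and the called genes of each nuclear list. The members and lists were chosen with earlier results of these data known. Both fits were tested on simulated counts with known changes. Alternatives were other normalizations, no count filter, DESeq2 1.42.0, a replicate block, summed inverted repeat pairs and leaving out each library.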

Additional observations from a re-analysis of the deposited data

How the results depend on the processing

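The 9 members ATCG00740 to ATCG00820 had positive log2 fold changes under every alternative run, on both scales. Of the 13 members called against all features 7 were called under every alternative, and of the 16 called within the plastid 9 were. These 9 include ATCG01130, which had no row of its own when the inverted repeat pairs were summed. Without 1 library each, the members called higher numbered 7 to 13 against all features and 9 to 21 within the plastid, and those called lower 0 to 8 and 0 to 0. The nuclear partner genes called higher numbered 1 to 17 and those called lower 0 to 3. Library totals gave 1 member lower and 30 nuclear genes higher. TMM factors from nuclear genes only, and no count filter, each gave 1 nuclear gene called lower. The replicate block gave 1 member lower against all features and 6 nuclear genes higher. Deviations of same-numbered libraries correlated at -0.0119, -0.0558 and -0.151. With 3 libraries per genotype, this cannot show whether same-numbered libraries were grown or prepared together. ATCG01020 ranged from -0.862 to 0.401 against all features without 1 library each, being lower and called without fve-8 replicate 3 alone, and was at -0.25 with the replicate block. With the inverted repeat pairs summed the row of ATCG01000 held both it and ATCG01130 and was at 1.16. The causes were not tested, apart from the fewer libraries or the summing itself. The share of plastid counts on members differed by 1.21 to 1.64 percentage points without 1 library each, that of all counts by 0.205 to 0.315, and the log2 ratio by 0.556 to 0.707. Since the files do not annotate rRNA and tRNA, the planned fit without them was not run; a fit of members and the comparison list alone, chosen after seeing the data like the ratio without the run, the comparison with all other plastid identifiers (a log2 difference of 0.61) and the share without the 2 largest members, called 16 members higher. The 10 members with at most 16 counts in any library could not be tested; whether depth or the handling of reads with several positions set these counts was not tested.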
